A study of Caenorhabditis elegans with 12 samples.

Results

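The 10 aquaporin genes aqp-1, aqp-2, aqp-3, aqp-4, aqp-5, aqp-6, aqp-7, aqp-8, aqp-10 and aqp-11 of Caenorhabditis elegans were followed across 4 genotypes. They were found by WormBase gene identifier among the 46739 genes of the count tables, and they are 10 of the 12 genes whose symbol begins with aqp. RNA came from whole worms collected at the late L4 larval stage after growth at 20 °C, with 3 libraries per genotype. The genotypes were wild-type (strain N2), eat-2(ad465) (strain DA465), acs-20(tm3232) (strain DCL29) and the double mutant eat-2(ad465); acs-20(tm3232) (strain DCL33). Each mutant genotype was thus sampled from 1 strain. eat-2 encodes a subunit of a nicotinic acetylcholine receptor that the pharynx requires for fast pumping, and mutants are used to study restricted feeding. The product of acs-20 belongs to the fatty acid transport proteins, which activate fatty acids with coenzyme A, and the cuticle requires it to act as a barrier.

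Aquaporins are membrane channels that let water, and in the aquaglyceroporin branch also glycerol and other small uncharged solutes, cross a membrane down its gradient. In C. elegans they are known from the excretory canal, the epidermis and the intestine, tissues that take part in water and salt balance, and glycerol is the osmolyte that worms accumulate under hypertonic conditions. By sequence aqp-1, aqp-2, aqp-3, aqp-7 and aqp-8 are placed with the aquaglyceroporins, aqp-4, aqp-5 and aqp-6 with the classical water channels, and aqp-10 and aqp-11 with a more divergent group.

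In the Ensembl annotation of the WBcel235 build the members lie on 5 chromosomes. The glycerol channel gene aqp-7 (WBGene00000175) is on chromosome X, with a longest predicted protein of 302 residues, and aqp-1 (WBGene00000169) on chromosome II, with 304. Of the genes known from the excretory canal, aqp-2 (WBGene00000170) is on II with 290 residues, aqp-3 (WBGene00000171) on IV with 421, and aqp-8 (WBGene00000176) on X with 330. The classical water channel genes share chromosome V, namely aqp-4 (WBGene00000172) with 273 residues, aqp-5 (WBGene00000173) with 316 and aqp-6 (WBGene00000174) with 291. aqp-10 (WBGene00000178) is on II with 280 residues and aqp-11 (WBGene00000179) on III with 279. Merged exons ran from 900 bases in aqp-11 to 1714 in aqp-8. Exons of aqp-2, aqp-5, aqp-7, aqp-8, aqp-10 and aqp-11 overlapped no other counted gene, while aqp-1 shared 93 bases, aqp-4 39, aqp-6 26 and aqp-3 15 with neighbours.

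Counts in genes came to 7116623 to 12016769 per library. Reads assigned to no gene were nearly as many, at 97.5 to 98.3% of the counts in genes. The strand setting of the counting is not given in the sources used here, and its part in this share was not tested. Markers of intestine, epidermis, body wall muscle, pharynx, neurons and germline were all detected in every genotype, as whole worms would have. Summed over the 3 libraries of a genotype, the eat-2 gene itself had 3 counts (wild-type), 0 (eat-2), 4 (acs-20) and 1 (double mutant), which is too few to check the labels, and acs-20 was read 678 to 1333 times per library with no genotype lacking it. The sources used here do not say whether libraries of 1 genotype came from separate cultures, so the p-values measure only the spread between libraries.

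The aquaporin genes fell into an abundant set of 7 and a barely detected set of 3. Levels were compared between genes as CPM per kb, that is counts scaled to a common library size divided by the length of a gene's merged exons. The aquaglyceroporin gene aqp-7 was the most abundant member, with a mean over the 12 libraries of 176 CPM per kb. It was followed by aqp-2 at 96.9, aqp-10 at 80.9, aqp-11 at 53.8, aqp-8 at 31.7, aqp-4 at 29.5 and aqp-1 at 15.8 CPM per kb. The remaining genes were far lower, with aqp-3 at 0.516, aqp-6 at 0.412 and aqp-5 at 0.0854 CPM per kb. Some neighbours in this order were not separated: aqp-2 lay above aqp-10 in 7 of 12 libraries, aqp-8 above aqp-4 in 5 of 12 and aqp-3 above aqp-6 in 6 of 12. The order of aqp-11 and aqp-8 held in 10 of 12 libraries and that of aqp-6 and aqp-5 in 11 of 12. In all 12 libraries aqp-7 exceeded aqp-2, aqp-10 exceeded aqp-11, aqp-4 exceeded aqp-1, and aqp-1 exceeded aqp-3.

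**Figure D1:**
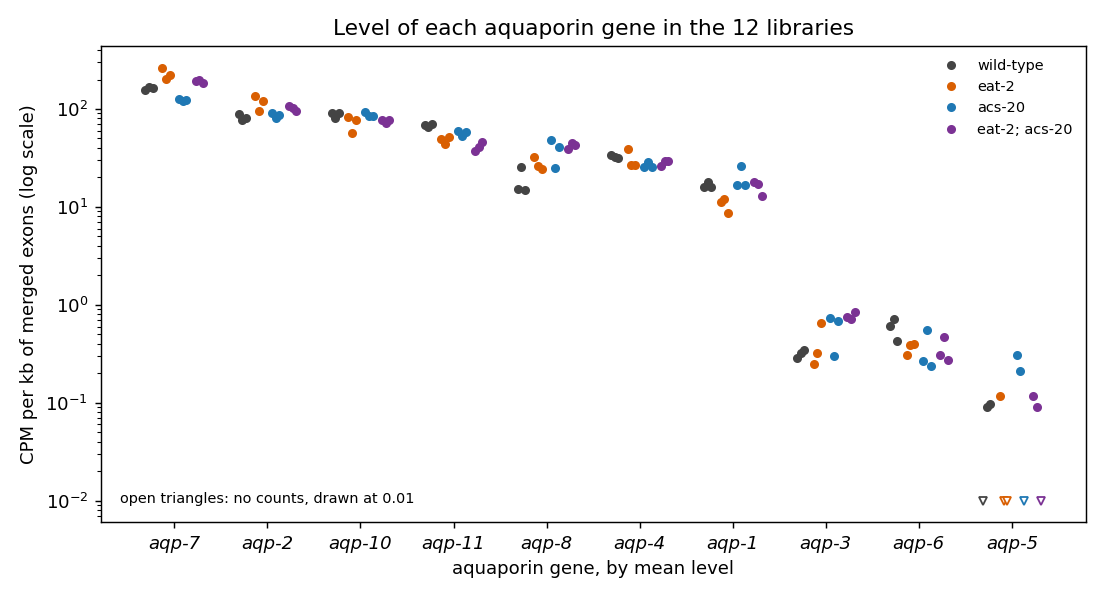
Level of each aquaporin gene in the 12 libraries, as CPM per kb of merged exons on a log axis, with 1 point per library coloured by genotype and open triangles for libraries with no count. The 7 genes on the left lie above 8.76 CPM per kb in every library, and aqp-3, aqp-6 and aqp-5 lie below 0.847 in every library.

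The summed level of the 10 genes was 469 ± 0.249 CPM per kb for wild-type (SD, n = 3), 537 ± 76.4 for eat-2, 439 ± 21.95 for acs-20 and 498 ± 8.92 for the double mutant. The eat-2 libraries alone ran from 463 to 615 CPM per kb and so overlapped the range of 419 to 463 in acs-20 only at its edge, and they enclosed wild-type and the double mutant. The make-up of the sum changed more than its size. aqp-7, aqp-2, aqp-10 and aqp-11 together held 80.0 to 88.6% of it in every library. The share of aqp-7 was 34.5% for wild-type, 42.7% for eat-2, 28.1% for acs-20 and 38.3% for the double mutant. The share of aqp-11 went the other way between genotypes with and without the eat-2 mutation, at 14.5% for wild-type, 9.07% for eat-2, 13.0% for acs-20 and 8.37% for the double mutant. The share of aqp-8 was 3.96% for wild-type, 5.13% for eat-2, 8.66% for acs-20 and 8.51% for the double mutant.

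**Figure D2:**
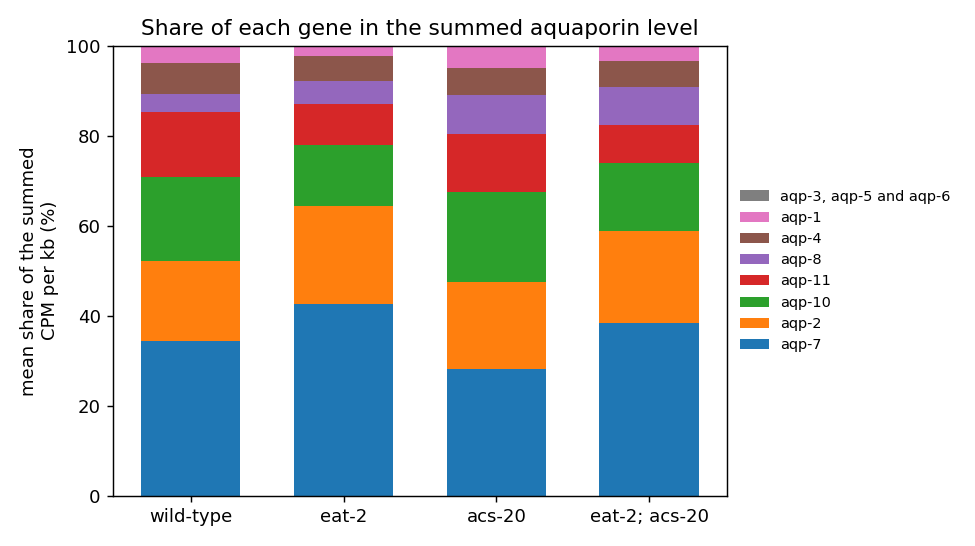
Mean share of each gene in the summed aquaporin level (CPM per kb, in percent) for each genotype, as stacked bars of 3 libraries each. The aqp-7 segment at the base runs from 28.1% in acs-20 to 42.7% in eat-2, and aqp-3, aqp-5 and aqp-6 are too small to be seen.

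Of the 10 genes, 8 had enough counts to be tested, and aqp-5 and aqp-6 did not. Differences among the 4 genotypes passed an edgeR quasi-likelihood test with 3 degrees of freedom for 5 of these 8, while 18.5% of the 14390 tested genes passed it. The 5 were aqp-7 (adjusted p = 0.000243, edgeR), aqp-11 (0.00178), aqp-8 (0.0190), aqp-2 (0.0220) and aqp-1 (0.0253). By this test aqp-7 ranked 281 among all tested genes. The other 3 did not pass, with adjusted p of 0.161 for aqp-3, 0.217 for aqp-10 and 0.382 for aqp-4 (edgeR). In RNA from whole worms, fewer cells of a type and less RNA per cell cannot be told apart, here and in every result that follows.

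Among the glycerol channel genes, aqp-7, which encodes a channel for glycerol and water, was higher wherever the eat-2 mutation was present. Its CPM values were 192, 208 and 202 for the wild-type libraries, 328, 249.9 and 274 for eat-2, 157, 149 and 152 for acs-20, and 239, 245 and 226 for the double mutant. The 6 libraries with the eat-2 mutation, at 226 to 328 CPM, lay above all 6 without it, at 149 to 208 CPM. The share of all tested genes separated in this way was not taken, here or for aqp-2 and aqp-11 below. Each genotype's range stood apart from the others, with acs-20 lowest and eat-2 highest. aqp-7 rose in eat-2 against wild-type by a log2 fold change of 0.50 (SE 0.101, adjusted p = 0.00793, edgeR). It also rose in the double mutant against acs-20, by 0.63 (SE 0.102, adjusted p = 0.00165), a comparison that uses none of the same libraries. Both increases passed the threshold in each of 12 fits that left out 1 library, with adjusted p of at most 0.0489 and 0.0118 (edgeR). Here and below, fits that left out a library outside a comparison bear on it only through estimates shared by all libraries. The acs-20 mutation went with lower values: the log2 change was -0.39 in acs-20 against wild-type (SE 0.102, adjusted p = 0.0712) and -0.26 in the double mutant against eat-2 (SE 0.101, adjusted p = 0.258), and neither was called by edgeR. The first of these was called by DESeq2 (-0.41, adjusted p = 0.00795), and by edgeR with no filter on low counts (-0.42, adjusted p = 0.0241) and with replicate number as a block (-0.39, adjusted p = 0.0475). It also passed without eat-2 replicate 1 (adjusted p = 0.0272) or eat-2 replicate 2 (0.0404), which enter it only through the shared estimate of the spread. For the double mutant against wild-type the log2 change was 0.24 (SE 0.101, adjusted p = 0.125), although the ranges did not overlap.

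aqp-1 encodes a glycerol channel of the intestine and is known as a gene activated by DAF-16, the FOXO factor of insulin signalling. Its CPM values were 16.6, 18.5 and 16.3 for wild-type, 11.6, 12.3 and 9.04 for eat-2, 17.2, 27.2 and 17.2 for acs-20, and 18.3, 17.5 and 13.4 for double mutant libraries. The 3 eat-2 libraries were the 3 lowest of the 12, and acs-20 replicate 2 stood above the rest. The log2 difference between eat-2 and wild-type was -0.65 (SE 0.197, adjusted p = 0.0620, edgeR), short of the threshold. It passed without acs-20 replicate 2, at -0.65 with an adjusted p of 0.0223, and by DESeq2, at -0.67 with an adjusted p of 0.0293. The double mutant against eat-2 gave 0.58 (SE 0.197, adjusted p = 0.182), and the double mutant against wild-type -0.07 (SE 0.190, adjusted p = 0.842). In the reference annotation aqp-1 shares 93 exon bases with ctsa-3.1 on the opposite strand. With the strand setting not given, reads of the 2 genes cannot be told apart there. ctsa-3.1 was 121 ± 6.74 CPM in wild-type and 77.2 ± 5.13 CPM in eat-2 (SD, n = 3), and it fell by 0.65 on the log2 scale (SE 0.123, adjusted p = 0.00536, edgeR). The part of this overlap in the aqp-1 values was not tested.

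The genes known from the excretory canal were aqp-2, aqp-8 and aqp-3. aqp-2, which encodes a channel that is also known from the epidermis, had CPM values of 127, 109.7 and 116 for wild-type, 193, 135 and 174 for eat-2, 129, 114 and 124 for acs-20, and 154, 146 and 137 for double mutant libraries. The 6 libraries with the eat-2 mutation, at 135 to 193 CPM, all lay above the 6 without it, at 109.7 to 129 CPM. aqp-2 rose in eat-2 against wild-type by a log2 of 0.51 (SE 0.121, adjusted p = 0.0198, edgeR). The call ended without wild-type replicate 2 (log2 0.46, adjusted p = 0.0610, edgeR), wild-type replicate 3 (0.50, adjusted p = 0.0622), eat-2 replicate 1 (0.39, adjusted p = 0.0809) or eat-2 replicate 3 (0.49, adjusted p = 0.0676). A fit to the compared libraries alone gave 0.48 (adjusted p = 0.0616, edgeR). The log2 difference in the double mutant was 0.31 against wild-type (SE 0.121, adjusted p = 0.0991) and 0.25 against acs-20 (SE 0.121, adjusted p = 0.200). The first of these passed without eat-2 replicate 2 (adjusted p = 0.0489, edgeR).

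aqp-8, known from the excretory cell, was the tested member that differed most in fold between wild-type and the double mutant after aqp-3. Its CPM values were 25.9, 44.1 and 25.5 for wild-type, 54.9, 44.5 and 41.7 for eat-2, 83.5, 43.1 and 70.5 for acs-20, and 67.5, 77.6 and 72.8 for double mutant libraries. Wild-type replicate 2 was far above its group and acs-20 replicate 2 far below, so that those genotypes overlapped, while all double mutant libraries exceeded all of wild-type and of eat-2. aqp-8 rose in the double mutant against wild-type by a log2 of 1.19, or 2.28-fold (SE 0.247 in log2, adjusted p = 0.00716, edgeR), and kept this call in each of 12 fits that left out 1 library (adjusted p of at most 0.0347). In acs-20 against wild-type the log2 difference was 1.04 (SE 0.248, adjusted p = 0.0586), just short of the threshold. That value passed without wild-type replicate 2 (1.35, adjusted p = 0.00870) or without acs-20 replicate 2 (1.27, adjusted p = 0.00635). For the double mutant against eat-2 it was 0.63 (SE 0.245, adjusted p = 0.282), although the ranges did not overlap. In eat-2 against wild-type it was 0.56 (SE 0.250, adjusted p = 0.220, edgeR), and it passed without wild-type replicate 2, at 0.87 with an adjusted p of 0.0403.

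aqp-3, which encodes another channel of the excretory canal, was near the limit of detection. Its counts were 4, 5 and 5 for wild-type, 3, 4 and 10 for eat-2, 10, 4 and 7 for acs-20, and 9, 11 and 15 for double mutant libraries. The double mutant libraries were above those of wild-type and met the upper end of the other mutants in counts, and in CPM they lay at 1.03 to 1.23 against 0.415 to 0.501 in wild-type. The log2 difference between the double mutant and wild-type was 1.25 (SE 0.443, adjusted p = 0.0568, edgeR), and it passed without acs-20 replicate 2 (adjusted p = 0.0465).

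aqp-4, the water channel gene of the intestine, showed no call. Its CPM values were 36.3, 35.1 and 33.8 for wild-type, 41.6, 28.6 and 28.8 for eat-2, 27.7, 30.9 and 27.8 for acs-20, and 28.0, 31.3 and 31.6 for double mutant libraries. eat-2 replicate 1 was the highest of all, and the other eat-2 libraries lay among those with the acs-20 mutation. The acs-20 libraries lay below wild-type without overlap, with a log2 difference of -0.28 (SE 0.135, 95% interval -0.57 to 0.01, adjusted p = 0.371, edgeR). Against wild-type, eat-2 gave -0.09 (95% interval -0.38 to 0.20) and the double mutant -0.21 (95% interval -0.50 to 0.08).

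Of the divergent group, aqp-11 was lower in every library with the eat-2 mutation. Its CPM values were 61.2, 58.7 and 63.7 for wild-type, 44.8, 39.1 and 46.8 for eat-2, 54.1, 47.9 and 52.0 for acs-20, and 33.4, 37.1 and 41.9 for double mutant libraries. The 6 libraries with the mutation, at 33.4 to 46.8 CPM, lay below the 6 without it, at 47.9 to 63.7 CPM. aqp-11 fell in eat-2 against wild-type by 0.49 on the log2 scale (SE 0.106, adjusted p = 0.0121, edgeR) and in the double mutant against wild-type by 0.70 (SE 0.106, adjusted p = 0.000600). Both calls held in each of 12 fits that left out 1 library (adjusted p of at most 0.0456 and 0.00370). It also fell in the double mutant against acs-20, by 0.45 (SE 0.107, adjusted p = 0.0148), a call that ended without acs-20 replicate 1 (0.0602), acs-20 replicate 3 (0.0548) or double mutant replicate 1 (0.0516). The acs-20 libraries were below wild-type without overlap, at a log2 difference of -0.25 (SE 0.105, adjusted p = 0.295, edgeR).

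aqp-10 of the same group had CPM values of 89.4, 80.4 and 89.7 for wild-type, 81.3, 56.4 and 76.3 for eat-2, 92.1, 82.8 and 82.5 for acs-20, and 76.4, 71.0 and 75.8 for double mutant libraries. The double mutant libraries lay below all wild-type and acs-20 libraries, while eat-2 replicate 1 reached into the wild-type range. No comparison was called: the log2 difference from wild-type was -0.28 in eat-2 (SE 0.121, adjusted p = 0.199, edgeR), -0.01 in acs-20 (SE 0.121, adjusted p = 0.978) and -0.22 in the double mutant (SE 0.121, adjusted p = 0.244).

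aqp-5 and aqp-6, placed with the classical water channels, were at or near the limit of detection. aqp-6 was counted 7, 9 and 5 times for wild-type, 3, 4 and 5 times for eat-2, 3, 6 and 2 times for acs-20, and 3, 6 and 4 times for double mutant libraries. aqp-5 had at least 1 count in 7 of 12 libraries and totals over 3 libraries of 2 for wild-type, 1 for eat-2, 5 for acs-20 and 2 for the double mutant. At 0 counts in a library up to 3 are allowed by counting error alone, so differences in aqp-5 were not detectable at this depth, and no fold is given for either gene.

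**Figure D3:**
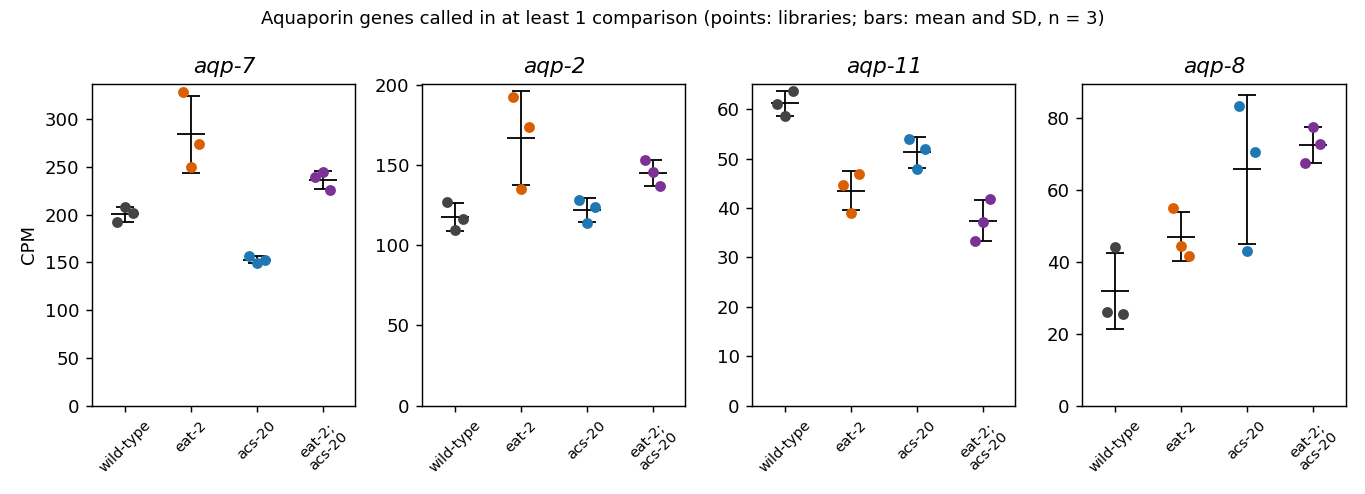
CPM of the 4 aquaporin genes called in at least 1 comparison of genotypes, with 1 point per library and bars for the mean and SD of 3 libraries, on axes that start at 0. aqp-7 and aqp-2 are higher and aqp-11 is lower in the libraries with the eat-2 mutation, and aqp-8 runs from 25.5 CPM in wild-type to 83.5 in acs-20.

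The effect of the eat-2 mutation was seen in 2 comparisons that share no library. In otherwise wild-type worms, 3 of the 8 tested aquaporin genes were called, beside 7.67% of all tested genes (4.12% higher and 3.54% lower): aqp-7 and aqp-2 rose and aqp-11 fell. In acs-20 mutants, 2 of 8 were called, beside 12.9% of all tested genes (7.64% higher and 5.31% lower): aqp-7 rose and aqp-11 fell. The median log2 difference of the 8 genes was 0.15 in the first comparison, against 0.04 over all tested genes, and 0.11 in the second, against 0.02. CPM ranges of the 2 genotypes did not overlap for 4 of the 8 genes in each, beside 24.6% of all tested genes in the first comparison and 33.6% in the second. In the first these were aqp-1, aqp-2, aqp-7 and aqp-11, and in the second aqp-2, aqp-7, aqp-10 and aqp-11. All 8 genes except aqp-4 had the same sign in both, and aqp-4 gave -0.09 and 0.08.

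The effect of the acs-20 mutation on the aquaporin genes did not pass the threshold in either background. In otherwise wild-type worms 0 of 8 were called by edgeR, beside 2.21% of all tested genes (0.987% higher and 1.22% lower). Of the 8, 3 (aqp-7, aqp-8 and aqp-11) had an unadjusted p under 0.05, and the share of all tested genes at that level was not taken. DESeq2 called aqp-7 lower and aqp-8 higher, among 482 genes that it called in all. In eat-2 mutants 0 of 8 were called by edgeR, beside 2.11% of all tested genes (1.36% higher and 0.757% lower). Of the 8, 3 (aqp-1, aqp-7 and aqp-8) had an unadjusted p under 0.05, again with no share of all tested genes taken. DESeq2 called 0 of the 8, among 542 genes that it called in all. The median log2 difference of the 8 genes was 0.02 and -0.03 in these comparisons, against 0.01 and 0.00 over all tested genes. The sign was the same in both for all of the 8 except aqp-2, at 0.05 and -0.20, and aqp-10, at -0.01 and 0.06.

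**Figure D4:**
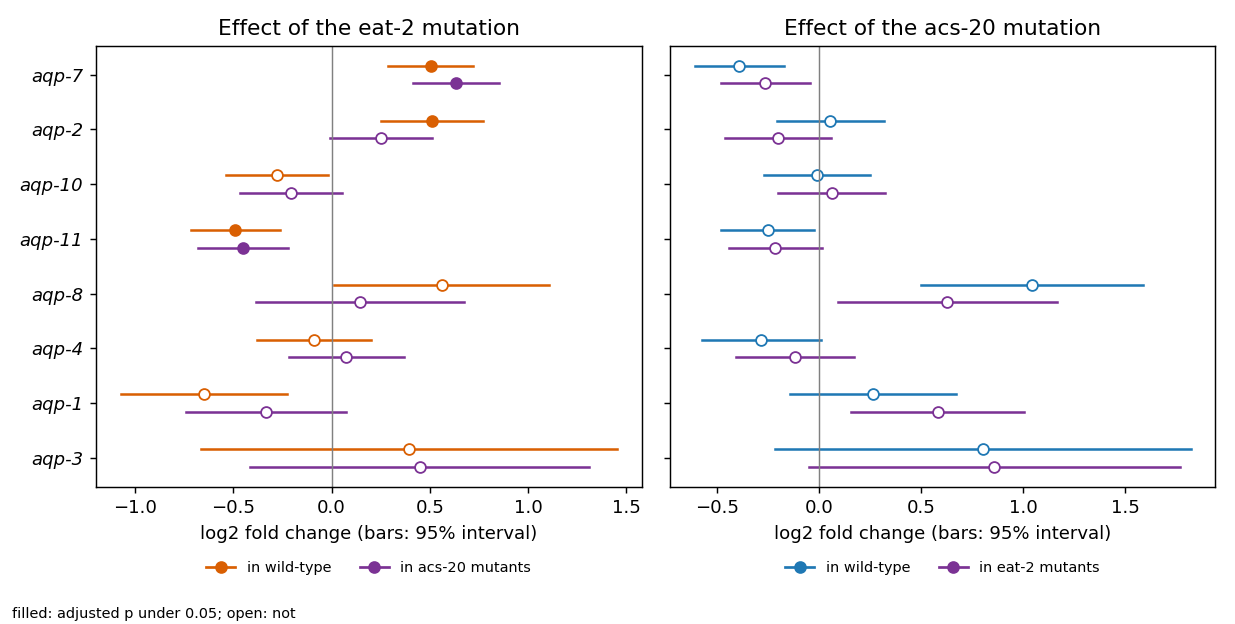
Log2 fold change of the 8 tested aquaporin genes with its 95% interval for the eat-2 mutation (left) and the acs-20 mutation (right), each in worms with and without the other mutation, with filled points for adjusted p under 0.05. aqp-7 lies at 0.50 and 0.63 for eat-2 and at -0.39 and -0.26 for acs-20, and aqp-8 at 1.04 and 0.63 for acs-20.

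In the double mutant against wild-type, 2 of 8 aquaporin genes were called, beside 17.6% of all tested genes (8.94% higher and 8.62% lower): aqp-8 rose and aqp-11 fell. CPM ranges did not overlap for 7 of the 8, the exception being aqp-1, beside 36.2% of all tested genes. The median log2 difference of the 8 was 0.08, against 0.04 over all tested genes. This comparison shares its control libraries with those of the single mutants. Set side by side, the log2 values against wild-type for eat-2, acs-20 and the double mutant in this order were 0.50, -0.39 and 0.24 for aqp-7, 0.56, 1.04 and 1.19 for aqp-8, and -0.49, -0.25 and -0.70 for aqp-11.

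No aquaporin gene passed the interaction test, which asks whether the effect of eat-2 differs between worms with and without the acs-20 mutation. By edgeR 0 of 8 were called, beside 0.188% of all tested genes (0.139% higher and 0.0486% lower), with 0 at an unadjusted p under 0.05 and 0 called by DESeq2. The interaction ran from a log2 of -0.42 for aqp-8 to 0.32 for aqp-1, with adjusted p of 0.795 to 0.996. The intervals were wide: for aqp-7 the difference between the effects of eat-2 was 0.13 (95% interval -0.18 to 0.44), for aqp-11 0.04 (-0.28 to 0.36) and for aqp-8 -0.42 (-1.18 to 0.35).

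Because no interaction was called, the effect of each mutation was also averaged over both backgrounds, a comparison added after the values had been seen. For the eat-2 mutation 4 of 8 aquaporin genes were called, beside 20.3% of all tested genes. aqp-7 rose by a log2 of 0.57 (SE 0.0719, adjusted p = 0.000109, edgeR) and aqp-2 by 0.38 (SE 0.0854, adjusted p = 0.00615), aqp-11 fell by 0.47 (SE 0.0750, adjusted p = 0.000652) and aqp-1 fell by 0.49 (SE 0.137, adjusted p = 0.0208). For the acs-20 mutation 2 of 8 were called, beside 4.76% of all tested genes. aqp-8 rose by 0.84 (SE 0.174, adjusted p = 0.0173, edgeR), and aqp-7 fell by 0.33 (SE 0.0719, adjusted p = 0.0167). aqp-1, at 0.42 (adjusted p = 0.106), and aqp-11, at -0.23 (adjusted p = 0.102), did not pass for acs-20.

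Genes known to handle glycerol and other osmolytes or to act in the osmotic response numbered 23 tested of 24 listed. In eat-2 against wild-type 4 rose and 7 fell, in acs-20 against wild-type 0 rose and 3 fell, and in the double mutant against wild-type 4 rose and 9 fell. Their median log2 difference was -0.14, -0.07 and -0.16 in these comparisons, against 0.04, 0.01 and 0.04 over all tested genes. Of all tested genes 7.67%, 2.21% and 17.6% were called in the same comparisons. The inositol transporter gene hmit-1.1 was 30.7 ± 2.87 CPM for wild-type, 3.83 ± 1.104 for eat-2, 8.88 ± 2.19 for acs-20 and 1.02 ± 0.393 for the double mutant (SD, n = 3). It fell in all 3, with adjusted p of 5.07e-06, 0.000399 and 1.78e-07 (edgeR). Beside it, osm-11, a secreted protein gene whose loss makes worms resistant to hypertonic conditions, rose in eat-2 by a log2 of 0.60 (adjusted p = 0.00108, edgeR) and in the double mutant by 0.51 (adjusted p = 0.00206), and fell in acs-20 by 0.39 (adjusted p = 0.0397), each against wild-type. pgph-3, a glycerol-3-phosphate phosphatase gene, fell against wild-type in eat-2 by 0.72 (adjusted p = 0.0479), in acs-20 by 1.12 (adjusted p = 0.0117) and in the double mutant by 1.85 (adjusted p = 9.86e-05, edgeR). hmit-1.2 fell in eat-2 against wild-type by 1.72 (adjusted p = 0.000510, edgeR) and was not called in acs-20 or the double mutant against wild-type. Those log2 differences were 0.30 (adjusted p = 0.541) and -0.63 (adjusted p = 0.0530, edgeR). In the double mutant against eat-2 hmit-1.2 rose by 1.09 (adjusted p = 0.0374, edgeR). tps-1 rose against wild-type in eat-2 by 0.53 (adjusted p = 0.0472) and in the double mutant by 1.04 (adjusted p = 0.000429, edgeR). For the double mutant, 1 of the 23 rose and 2 fell against eat-2, and 4 rose and 8 fell against acs-20. Of all tested genes 2.11% and 12.9% were called in these comparisons. By edgeR 0 of the 23 passed the interaction test, with 7 at an unadjusted p under 0.05 and 1 called by DESeq2. The share of all tested genes at that unadjusted level was not taken, here or for the excretory canal genes below.

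Genes for the build and function of the excretory canal, the site of aqp-2, aqp-3 and aqp-8, numbered 18 tested of 20 listed. By edgeR 0 were called in eat-2 against wild-type (2 at an unadjusted p under 0.05), 0 in acs-20 against wild-type (3) and 0 in the double mutant against eat-2 (2), and DESeq2 called 0 in each. Between the double mutant and wild-type 3 of 18 were called, beside 17.6% of all tested genes. Of these, sma-1, a spectrin gene, rose by a log2 of 0.33, and exc-15 and ifb-1, an intermediate filament gene, fell by 0.53 and 0.37. In the double mutant against acs-20, nhr-31 (0.42), exc-5 (0.64) and sma-1 rose and 0 fell, beside 12.9% of all tested genes called. The summed level of the listed genes was 3945 to 4504 CPM in wild-type and 3743 to 4105 in the double mutant. This sum follows its most abundant genes. Of a mean of 4236 CPM in wild-type, vha-2 held 767, vha-8 634 and ifb-1 584 CPM, while exc-4 held 19.2, exc-5 14.8 and exc-9 20.0. The part of canal content in the aqp-8 values was not tested. DAF-16 targets, the group to which aqp-1 is assigned, numbered 12 tested of 15 listed, and sod-3, hsp-12.6 and scl-1 were not tested. Of the 12, 1 rose and 1 fell in eat-2, 1 rose in acs-20, and 1 rose and 1 fell in the double mutant, each against wild-type. Of all tested genes 7.67%, 2.21% and 17.6% were called in these comparisons.

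Markers of stage and tissue moved with the eat-2 mutation. The 7 adult stage markers, which are yolk protein and adult cuticle genes, summed to 9209 to 13687 CPM in wild-type and 7631 to 16054 in acs-20, but to 3106 to 4476 in eat-2 and 2609 to 3944 in the double mutant. Of them 4 of 7 fell in eat-2 and 6 of 7 in the double mutant against wild-type, and 0 were at zero in any genotype. The 4 in eat-2 were the yolk protein genes vit-1, vit-2, vit-5 and vit-6. The cuticle genes col-19, rol-1 and col-38 were lower there but not called, with adjusted p of 0.161, 0.127 and 0.144 (edgeR). The 6 body wall muscle markers summed to 7255 to 8490 CPM for wild-type, 5587 to 6603 for eat-2, 6941 to 8493 for acs-20 and 5553 to 6740 for the double mutant, and 4 of 6 fell in eat-2. Their part in the eat-2 differences of aqp-7, aqp-2 and aqp-11 was not tested. The 10 intestine markers summed to 12185 to 13657 CPM in wild-type and 13710 to 17733 in eat-2, with 0 called higher and 1 lower. Most of this sum was asp-1, with a mean of 8247 CPM in wild-type and 10569 in eat-2. The median log2 difference of the 10 intestine markers was 0.004, against 0.04 over all tested genes. The 10 epidermis markers summed to 1854 to 3314 CPM in wild-type, 2079 to 2820 in eat-2, 1925 to 3090 in acs-20 and 1271 to 1896 in the double mutant. Of them 0 were called in acs-20 against wild-type, while in the double mutant against wild-type nhr-25 rose by a log2 of 1.02 (adjusted p = 0.0136, edgeR), nhr-23 rose by 0.45 (adjusted p = 0.0244) and bli-1 fell by 1.295 (adjusted p = 0.0207). bli-1 had a mean of 1523 CPM in wild-type and 620 in the double mutant, out of summed means of 2655 and 1495. Over all 10 epidermis markers, the median log2 difference in the double mutant against wild-type was -0.31, against 0.04 over all tested genes. The part of the epidermis markers in the aqp-2 and aqp-8 values was not tested. In eat-2 against wild-type 1 of the 10 rose, nhr-23, by 0.56 (adjusted p = 0.0149, edgeR). The pharynx markers were lower in acs-20, with 3 of 5 tested genes called and a sum of 85.6 to 124 CPM against 194 to 219 in wild-type, and were 133 to 176 in eat-2 and 187 to 193 in the double mutant. In the interaction test 3 of these 5 genes were called, all with a positive value, beside 0.188% of all tested genes. The part of the pharynx markers in the acs-20 differences of aqp-7 and aqp-8 was not tested. Markers of neurons summed to 162 to 218 CPM and those of the germline to 557 to 1212 CPM over all genotypes, whose ranges overlapped.

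The genes whose levels followed those of an aquaporin most closely were listed for the 3 members with the smallest p among genotypes. Likeness was the Pearson correlation of log2 CPM over the 12 libraries among 8845 genes of moderate or high level. These libraries share genotypes and depth, so the values only describe the pattern. Over all compared genes the 99th percentile of r was 0.904 for aqp-7, 0.941 for aqp-11 and 0.763 for aqp-8. For aqp-7 the closest were W01B11.6 (r = 0.98), abt-2, an ABC transporter gene (r = 0.97), and ifbp-1 (r = 0.97). W01B11.6 stood at 28.2 ± 1.95 CPM for wild-type, 50.4 ± 12.5 for eat-2, 15.02 ± 1.17 for acs-20 and 37.8 ± 4.73 for the double mutant (SD, n = 3), the same order of genotypes as aqp-7. For aqp-11 they were the alpha-tubulin gene tba-4 (r = 0.99), T02G5.7 (r = 0.99) and F21D5.7 (r = 0.98). tba-4 was at 420.1 ± 25.2 CPM for wild-type, 265 ± 21.2 for eat-2, 339 ± 16.4 for acs-20 and 230.4 ± 21.8 for the double mutant. For aqp-8 they were Y49A3A.3 (r = 0.91), the hexosaminidase gene hex-4 (r = 0.91) and ZK632.11 (r = 0.90).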

How the data were processed

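RNA sequencing of 12 libraries was analysed from raw read counts per gene, deposited by the authors as 1 table per library with no normalization. The tools listed in the submitters' processing notes, without their roles, are HTSeq, TopHat2, DESeq2 and FastQC 0.11.5. Neither build nor strand setting is given in the sources used here, so no coordinates are printed. HTSeq's summary lines name no gene and were left out of library sizes and tests. They came to 97.5 to 98.3% of the counts in genes for reads in no feature, and reads with more than 1 position were 5.21 to 9.99% of all lines. Symbols, exon lengths and overlaps came from the Ensembl annotation of WBcel235, in which all 10 members were found.

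Genes were filtered with edgeR 4.0.16 (R 4.3.3) filterByExpr by genotype (minimum count 10, minimum total 15), which left 14390 genes with 99.82 to 99.89% of the counts in genes. With TMM factors of 0.921 to 1.098, all 12 libraries entered 1 negative binomial fit with a mean per genotype (8 residual degrees of freedom, common biological coefficient of variation 0.153). Quasi-likelihood tests (robust) covered 6 contrasts and any difference among genotypes, and p-values were adjusted by Benjamini-Hochberg over all tested genes. A gene was called at an adjusted p under 0.05, and rose, fell and called refer to this. SEs and intervals of log2 fold changes came from the same fit. CPM used the TMM-scaled library sizes, and log2 CPM a prior count of 2. The floor of 3 counts for a library at 0 covers counting error only.

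All 10 members are named. Genes of the 10 other lists named with a log2 change are among the 3 called genes with the smallest p in at least 1 contrast. Their values in other contrasts, where they may rank lower, are given beside. Not all such genes are named. Likeness was taken for the 3 members with the smallest p among genotypes. Members, lists and tests were chosen with earlier results of these data known. On simulated counts for eat-2 against wild-type, the fit recovered 25 of 67 genes changed 1.5-fold, 56 of 67 changed 2-fold and 66 of 66 changed 4-fold, with 5 false calls, so a change of the size seen in aqp-7 can be missed. Within genotypes no 2 libraries agreed within sampling noise (chi-square per gene 3.92 to 49.1).

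The alternatives tried were DESeq2 1.42.0, RLE factors, no filter, the compared libraries alone, the replicate number as a block, each library left out in turn, and, added after the data had been seen, effects averaged over both backgrounds.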

Additional observations from a re-analysis of the deposited data

How the results depend on the processing

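Of 48 differences (8 aquaporin genes in 6 comparisons), the 7 that were called kept their sign under every alternative tried. Over the 822 alternative values, 769 kept their sign and side of the threshold, 8 lost a call, 24 gained one and 21 changed sign, all 21 in differences that were not called. Of the 822, 576 came from fits that left out 1 library, including libraries outside the comparison. Counts of called aquaporin genes moved in several comparisons. In acs-20 against wild-type the count of 0 became 1 with no filter on low counts (aqp-7), 1 with the replicate block (aqp-7), 2 with DESeq2, 2 when averaged over both backgrounds, and 0 to 1 when single libraries were left out. In the double mutant it went from 2 to 4 against wild-type with the replicate block (aqp-2 and aqp-3 added), from 0 to 1 against eat-2 with the replicate block (aqp-1) and to 1 with the compared libraries alone (aqp-8), and from 2 to 1 to 2 against acs-20 when single libraries were left out. For aqp-1 in eat-2 against wild-type (adjusted p = 0.0620 by edgeR), no filter gave 0.00399, the replicate block 0.0143, the compared libraries alone 0.0423 and DESeq2 0.0293, and leaving out single libraries 0.0223 to 0.218. The cause of these moves was not tested. The count for any difference among genotypes stayed at 5 with RLE factors.

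The differences that changed sign, none of them called, were these. Averaged over both backgrounds, the acs-20 effect on aqp-2 was -0.074 (0.055 in wild-type worms) and on aqp-10 0.025 (-0.011). Leaving out single libraries gave log2 ranges of -0.15 to 0.63 for aqp-3 and -0.29 to 0.0071 for aqp-4 in eat-2 against wild-type, -0.065 to 0.017 for aqp-10 in acs-20 against wild-type, and -0.17 to 0.051 for aqp-1 in the double mutant against wild-type. Against eat-2 the double mutant gave -0.23 to 0.062 for aqp-4 and -0.077 to 0.15 for aqp-10, and against acs-20 -0.10 to 0.36 for aqp-8. The interaction ran from -0.28 to 0.58 for aqp-3, -0.066 to 0.16 for aqp-10 and -0.042 to 0.12 for aqp-11. The cause was not tested.

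The labels do not say what replicate numbers mark. Residuals of same-numbered libraries correlated at -0.09 to 0.43 (median 0.14), over 0.1 in 9 of 18 pairs and not in all, so the numbers were not taken as pairs. Residuals of libraries with different numbers correlated at -0.47 to 0.39 (median -0.06), and the same number correlated best in 21 of 36 cases, a hint from the data and not from the design. RLE factors and DESeq2 moved the median of all genes by at most 0.04 (log2). Counts of 15 or fewer per library limit aqp-3, aqp-5 and aqp-6. Counts over all tested genes, which set the shares beside the aquaporin counts, moved more. For acs-20 against wild-type the 318 became 539 with no filter and 482 with DESeq2, for the double mutant against eat-2 the 304 became 579 with no filter, 653 with the replicate block and 542 with DESeq2, and for the interaction the 27 became 99, 56 and 125. Leaving out single libraries gave 576 to 1272 for eat-2 (1103) and 161 to 345 for acs-20, both against wild-type. For the double mutant it gave 1573 to 2676 against wild-type (2526), 154 to 434 against eat-2 and 919 to 2026 against acs-20 (1863), and for the interaction 8 to 150.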

Other observations

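Outside the 10 members, the symbols aqp-9 and aqp-12 were also counted, and for neither was a difference among genotypes detected. aqp-12 had mean levels of 14.4 CPM (wild-type), 14.5 CPM (eat-2), 14.2 CPM (acs-20) and 15.7 CPM (double mutant), each over 3 libraries, with an adjusted p of 0.828 for any difference among the 4 genotypes (edgeR). aqp-9 stood at 4.17, 4.596, 3.78 and 4.35 CPM in the same order, with an adjusted p of 0.846 (edgeR). In the reference annotation aqp-9 shares 120 exon bases with K07A1.15 and aqp-12 72 with pqn-87, each on the opposite strand, and reads there cannot be told apart.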
